A study of Mus musculus with 12 samples.

Results

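The genes described here build and serve the machinery by which mitochondria make ATP. They were chosen by name: subunits and assembly factors of complex I (Nduf), complex III (Uqcr), complex IV (Cox) and ATP synthase (Atp5), proteins of the mitochondrial ribosome (Mrpl and Mrps), inner and outer membrane translocases (Timm and Tomm) and carriers of the Slc25 family (Slc25a). A gene counted as a member where at least 1 probe listed it alone, which gave 37 genes of the 3089 named genes on the array: 5 Nduf, 1 Uqcr, 4 Cox, 3 Atp5, 9 Mrpl, 1 Mrps, 4 Timm, 2 Tomm and 8 Slc25a. They were measured by 45 probes, with 1 probe each for 30 genes. The rule uses gene names alone.

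The study asked how gene expression in the mouse oocyte differs with the age of the female. RNA of aged oocytes was set directly against RNA of young oocytes on 12 two-colour arrays, in 3 pairs. Pair 1 set aged RNA 1 against young RNA 1, pair 2 aged RNA 2 against young RNA 5, and pair 3 aged RNA 3 against young RNA 2. Each pair was hybridised 4 times, from 2 labellings with the dyes both ways round, and its 4 arrays make 1 replicate. The labels state neither strain nor age, neither the number of oocytes or animals behind an RNA nor whether different RNAs stem from different animals, so the spread among the 3 pairs may in part be technical.

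Values below are log2 of the aged over the young signal, so a negative one means less signal from the aged RNA. Each array was centred on its median, so the ratios are relative to the typical probe, and they say nothing of a change that all genes share. Neither the direction nor the nature of the deposited ratio is settled: it was assumed to be Cy5 over Cy3, with the sign changed where the aged RNA was in Cy3, and every sign below would turn with the opposite convention. Read instead as values that the authors had already turned, the median over the 37 genes would be 0.084 in place of -0.050. That of all named genes would be 0.093 in place of 0.00055, and the mean of Atp5b 0.34 in place of -0.67. As deposited, arrays of opposite dyes had a mean correlation over all probes of -0.19 in pair 1, 0.094 in pair 2 and 0.17 in pair 3, against 0.49 for arrays of the same pair and dye. A dye ratio that follows the RNA changes sign with the dyes and so correlates below 0 here, which was the case in pair 1 and not in pairs 2 and 3. With no sign turned, 5566 rows had an unadjusted p under 0.05, against 1402 as read here. The SD of a single array ran between 0.39 and 1.23, the widest in pair 1 (labelling 2, aged RNA in Cy3). It was 0.79 or more on the arrays of pair 1 and 0.77 or less on those of pairs 2 and 3. Before centring, the medians of the pair 1 arrays lay between -1.05 and 0.16, and those of pairs 2 and 3 between -0.0088 and 0.013. The arrays hold ratios and no levels, so whether oocyte transcripts dominate the RNA could not be checked. Among genes that mark cells of the ovary, the 4 measured of 25 cumulus and granulosa markers had a median of -0.071, the 4 of 29 blood and immune markers 0.18, the 1 of 17 theca, stroma and vessel markers -0.15 and the 6 of 38 oocyte markers -0.11. Their part in the ratios below was not tested. A ratio per total RNA also cannot tell fewer mitochondrial transcripts per oocyte apart from more of other transcripts.

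Complexes I, III and IV pass electrons to oxygen and pump protons across the inner membrane, and ATP synthase lets the protons back to make ATP. Most subunits are encoded in the nucleus, made in the cytosol and brought in through the Tomm and Timm translocases, while a few core subunits are encoded by mitochondrial DNA and made by the mitochondrial ribosome. The oocyte holds a very large store of maternally inherited mitochondria and depends on their respiration for meiosis and early cleavage.

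The mitochondrial genes as a whole showed no shift between aged and young oocytes that exceeded the spread among RNA pairs. Their median was -0.050, with pair medians of -0.13, 0.081 and -0.063 (SD 0.11 over the 3 pairs), against a median of 0.00055 for all named genes. Of the 37 genes, 20 had a mean below 0 (54.1%), close to the 49.9% of all named genes. With no sign turned, 15 were below 0, against 36.8% of named genes. Tested with limma against 0 over the 3 pairs and adjusted over 21370 rows by the Benjamini-Hochberg method, 0 of the 37 passed an adjusted p of 0.05, as did 0% of all rows. At an unadjusted p under 0.05, 5 were lower (Atp5b, Atp5g1, Mrpl44, Mrps31 and Uqcrc2) and 1 was higher (Ndufc1). The same held for 5.34% of named genes in the lower and 2.33% in the higher direction, and for 3.78% and 2.78% of all rows. The sign was the same in all 3 pairs for 7 genes below 0 (Atp5b, Atp5g1, Mrpl15, Mrpl44, Mrps31, Ndufa1 and Uqcrc2) and for 4 above 0 (Ndufa12, Ndufc1, Slc25a15 and Slc25a36). Among named genes these shares were 16.3% and 16.4%. The means ran between -0.67 for Atp5b and 0.53 for Mrpl37, and the median SD among the 4 arrays of a pair was 0.53, larger in size than the mean ratio of all but 3 of the genes. Without centring, the median of named genes was -0.114 and the means of Cox6b2, Ndufa12, Timm17b and Tomm40 lay below 0 in place of above, and with arrays scaled to one spread that of Timm9 was 0.133. The scaling also set the median of the 37 genes at 0.025, with 18 means below 0, against a median of 0.013 for named genes. Leaving out the centring gave 27 below 0 and a median of -0.16, against the -0.114 of named genes. The share of named genes below 0 was not counted in either setting, so the 18 and 27 have no background beside them.

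**Figure D1:**
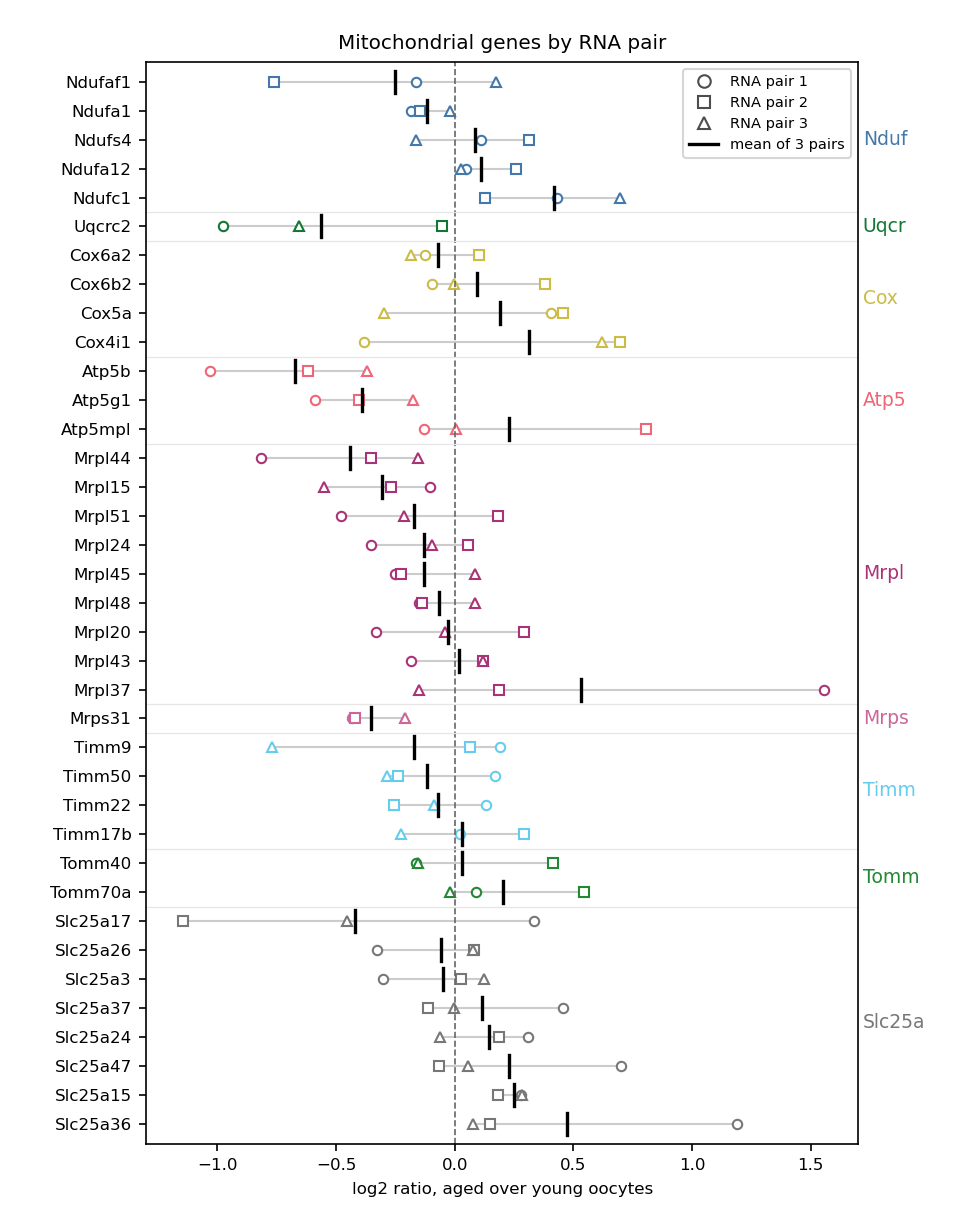
Log2 ratio of aged over young oocytes (x axis) for the 37 mitochondrial genes (rows, by name group and then by mean). Open symbols are the 3 RNA pairs, each the mean of both dye orientations over 4 arrays, and black bars the mean of the pairs. For Mrps31 and Ndufaf1, 1 array of pair 3 is missing. Atp5b and Mrpl44 lie left of 0 in every pair, while Mrpl37 and Slc25a36 are highest in pair 1 (1.56 and 1.19).

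**Figure D2:**
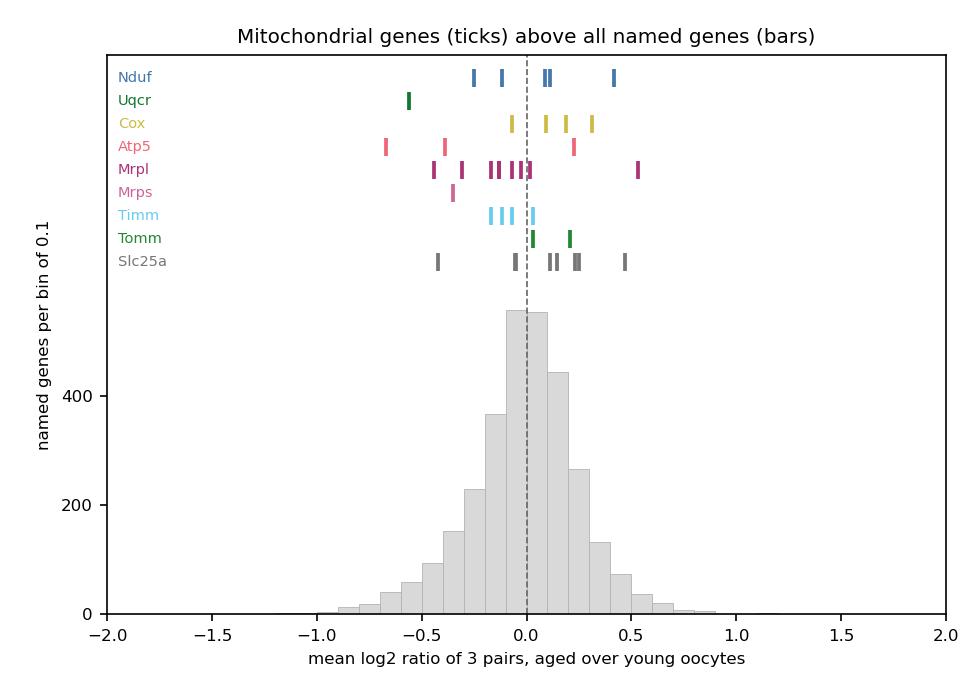
Mean log2 ratio of the 3 pairs, aged over young oocytes (x axis), as a tick for each mitochondrial gene in its name group, above the histogram of the same value for the named genes (y axis, genes per bin of 0.1). The ticks run between -0.67 and 0.53 and lie within the spread of the named genes.

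The promoter of 5 of the 6 genes at an unadjusted p under 0.05 is shown because these genes had the smallest p of the 37. Each is the 200 bases before the annotated start, 5′ to 3′ on the gene's own strand, from RefSeq (GRCm38.p6), which had an entry for 30 of the 37 genes. Capitals mark matches, on either strand, to CCAAT (a box bound by NF-Y, reverse complement ATTGG) or to GCGCA and GCGC with any 1 base between (the core of sites bound by NRF1, a regulator of many respiratory genes).
Atp5b (chr10:128083107-128083306, plus strand): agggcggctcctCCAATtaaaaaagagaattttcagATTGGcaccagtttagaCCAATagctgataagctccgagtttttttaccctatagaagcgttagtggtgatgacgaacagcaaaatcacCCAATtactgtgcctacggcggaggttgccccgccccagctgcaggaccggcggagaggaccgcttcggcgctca
Atp5g1 (chr11:96075632-96075831, minus strand): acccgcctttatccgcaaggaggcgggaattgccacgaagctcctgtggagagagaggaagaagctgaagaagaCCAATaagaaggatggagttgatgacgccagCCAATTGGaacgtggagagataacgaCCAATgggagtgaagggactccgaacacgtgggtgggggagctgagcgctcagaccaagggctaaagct
Mrpl44 (chr1:79775818-79776017, plus strand): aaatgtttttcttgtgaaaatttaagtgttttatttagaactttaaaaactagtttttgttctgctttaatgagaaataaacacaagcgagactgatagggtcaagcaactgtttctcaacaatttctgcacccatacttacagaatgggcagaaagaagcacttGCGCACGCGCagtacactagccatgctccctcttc
Mrps31 (chr8:22411140-22411339, plus strand): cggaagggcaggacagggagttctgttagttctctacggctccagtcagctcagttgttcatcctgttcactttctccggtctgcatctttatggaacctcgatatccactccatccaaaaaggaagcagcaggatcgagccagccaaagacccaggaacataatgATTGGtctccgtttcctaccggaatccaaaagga
Ndufc1 (chr3:51408956-51409155, minus strand): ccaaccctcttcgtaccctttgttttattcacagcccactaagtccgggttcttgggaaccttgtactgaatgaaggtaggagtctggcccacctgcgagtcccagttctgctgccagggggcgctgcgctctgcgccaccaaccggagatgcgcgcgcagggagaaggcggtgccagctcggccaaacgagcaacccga
Atp5b has 4 CCAAT matches, whose first bases lie 188, 164, 147 and 75 bases before the start. In Atp5g1 the 4 matches begin at 126, 95, 92 and 69 bases, and those at 95 and 92 overlap on opposite strands. Mrps31 has 1, on the opposite strand, at 34 bases. Mrpl44 has none and holds the NRF1-like letters 35 bases before the start. In the Ndufc1 window no searched motif was found.

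CCAAT occurred in the same window of 32.7% of 27025 genes and of 11 of the 30 mitochondrial genes, and the NRF1-like letters in 3.97% of genes and in 2 of the 30 (Mrpl44 and Mrpl45). At least 4 CCAAT matches were present in 0.592% of genes and in 3 of the 30: Atp5b, Atp5g1 and Tomm40, a count looked at after the sequences were seen. Both Atp5 genes had negative ratios, whereas the Tomm40 mean was 0.033 ± 0.33. The letters CCGGAAG, bound by ETS factors, occurred in 7.15% of genes and in 7 of the 30, AAGATGGC, bound by YY1, in 1.40% and 0, and TATAAA in 11.7% and 1. The windows of the 30 genes had a median GC content of 56.5%, against 53.0% for all genes. A match is a run of letters and was not tested for binding.

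Complex I takes electrons from NADH. Its 5 measured genes did not move as a group: 2 had means below 0 and 3 above, with a median of 0.086 (-0.028 without centring). Ndufc1, a small accessory subunit of the membrane arm, was at 0.43 in pair 1, 0.13 in pair 2 and 0.70 in pair 3, all above 0, with a mean of 0.42 ± 0.28 (SD, 3 pairs; limma adjusted p = 0.716). Its single arrays disagreed: 7 of 12 were above 0, and the pair 3 value rests on 1 array at 3.47 beside others between -0.90 and 0.55. With the median of each pair's arrays in place of their mean, Ndufc1 stood at 0.22, and with the aged RNA in Cy3 alone at 0.058. A probe that lists Ndufc1 among several genes read -0.17, and averaging it in gave 0.13.

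Ndufaf1, an assembly factor and not a subunit of the finished complex, had -0.16 in pair 1, -0.76 in pair 2 and 0.17 in pair 3, with 1 array missing in pair 3. Its arrays spread between -1.85 and 2.10, a far wider range than the mean of -0.25 ± 0.47. The missing array held a value on the limit, and with limit and 0 values kept as deposited the mean was -0.76. Ndufa1, an X-linked accessory subunit needed to assemble the membrane arm, was slightly below 0 in each pair (-0.18, -0.15 and -0.019). Ndufa12, an accessory subunit of the arm that binds NADH, was slightly above in each (0.049, 0.26 and 0.029). Both means, -0.12 ± 0.086 and 0.11 ± 0.13, were small beside the spread of their arrays. Ndufs4, an accessory subunit whose loss causes Leigh syndrome in people, had a mean of 0.086 ± 0.24, and its 2 probes lay on opposite sides of 0 (-0.12 and 0.29).

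Complex III hands electrons to cytochrome c, and Uqcrc2, one of its core proteins, was the only member measured. It had -0.97 in pair 1, -0.055 in pair 2 and -0.66 in pair 3, with a mean of -0.56 ± 0.47 (limma adjusted p = 0.716), or a ratio of 0.677 of aged to young. All arrays of pairs 1 and 3 lay below 0. Those of pair 1 were split by dye, at -1.45 and -1.82 with the aged RNA in Cy3 and at -0.043 and -0.59 in Cy5. In pair 2 the arrays with the aged RNA in Cy3 were at 0.36 and 0.17 and those with it in Cy5 at -0.49 and -0.26. A probe that lists Uqcrc2 among several genes had a mean of -0.16, and averaging it in brought the gene to -0.36.

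Complex IV reduces oxygen to water. None of its 4 genes kept 1 sign in the 3 pairs, and their median was 0.14. Cox4i1, the general isoform of a regulatory subunit, had -0.38 in pair 1, 0.70 in pair 2 and 0.62 in pair 3: all 8 arrays of pairs 2 and 3 were above 0, at 0.41 or more, while pair 1 had 3 of 4 below. Its mean of 0.31 ± 0.60 therefore hides a difference among pairs that passed the limma F test (adjusted p = 0.0395). Cox5a, a subunit of the matrix side, had 0.41, 0.46 and -0.30 in pairs 1 to 3. For pair 2 the mean came from 1 array at 1.61, and for pair 3 from 1 at -1.64. Of the tissue isoforms, Cox6a2 of heart and skeletal muscle had a mean of -0.069 ± 0.15 and Cox6b2 of testis 0.093 ± 0.25, both within the spread of their pairs.

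ATP synthase couples proton flow through its membrane part, Fo, to ATP synthesis in its head, F1. Atp5b, the catalytic beta subunit of F1, had the lowest mean of the 37 genes. It was at -1.03 in pair 1, -0.62 in pair 2 and -0.37 in pair 3, a mean of -0.67 ± 0.33 (SD, 3 pairs; limma adjusted p = 0.70) or 0.628 of the young signal, and 11 of 12 arrays were below 0. In pairs 2 and 3 the 8 arrays lay close together, between -0.78 and -0.28 with both dyes. In pair 1 they did not: -2.05 and -2.32 with the aged RNA in Cy3, as against 0.75 and -0.49 in Cy5. Without pair 1 the mean was -0.49. Across 20 alternative settings Atp5b kept an unadjusted p under 0.05 in 17, the exceptions being each dye orientation alone and the reading without turned signs. Settings that altered only probe averaging or the fit left its mean at -0.67, since it has 1 probe and a value on all 12 arrays. Those settings are no separate checks of its ratio.

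Atp5g1 encodes the c subunit that forms the rotor ring of Fo, together with sister genes that make the same mature protein. Its pair values were -0.59, -0.40 and -0.18, all below 0, with a mean of -0.39 ± 0.21 (limma adjusted p = 0.716). The 4 probes that list Atp5g1 beside other genes had means between -0.14 and 0.14, and with them averaged in the gene was at -0.10. Atp5mpl, a small membrane subunit, behaved differently: pair 2 was at 0.81 with all 4 arrays above 0, while pairs 1 and 3 were at -0.13 and 0.0072. The ATP synthase genes had a median of -0.39, with pair medians of -0.59, -0.40 and -0.18, which are the values of Atp5g1. They did not all go the same way: 2 of 3 had negative means and 1 a positive one.

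**Figure D3:**
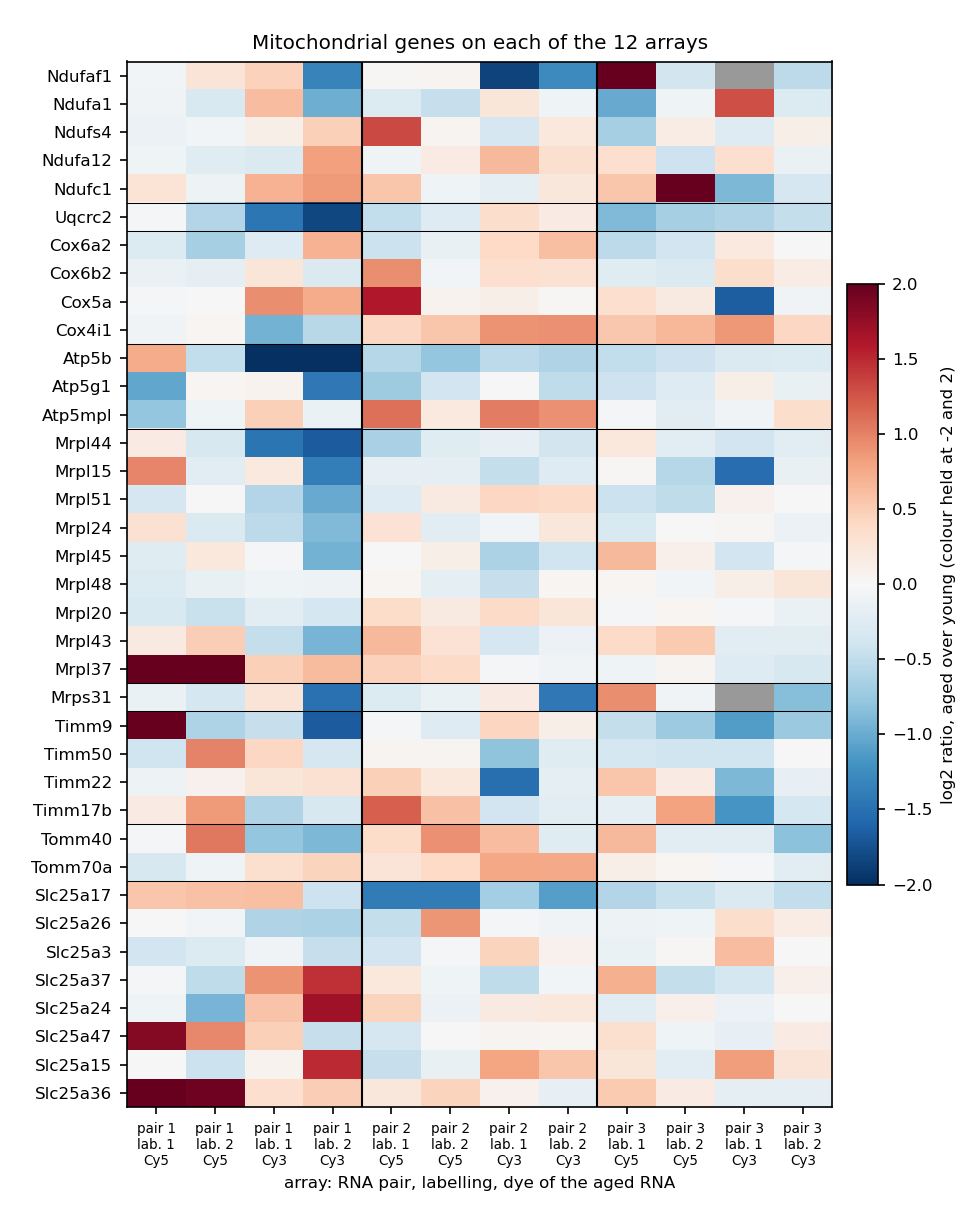
Log2 ratio of aged over young oocytes (colour, held at -2 and 2) for the 37 mitochondrial genes (rows) on the 12 arrays (columns, by RNA pair, dye of the aged RNA and labelling); grey is missing. Atp5b is blue on 11 of 12 arrays, whereas most rows change colour between dyes or pairs.

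The mitochondrial ribosome makes the proteins encoded by mitochondrial DNA. Its 10 measured genes had a median of -0.13, with pair medians of -0.29, -0.041 and -0.12, and 8 of the 10 means were below 0, against 49.9% of named genes. With no sign turned only Mrpl20, Mrpl48 and Mrpl51 were below 0, 3 of the 10, and the median was 0.27, so the direction of the ribosomal genes rests on the assumed dye ratio. Mrpl44, a large-subunit protein with a domain related to RNase III, had -0.82 in pair 1, -0.35 in pair 2 and -0.16 in pair 3. Its mean was -0.44 ± 0.34 (limma adjusted p = 0.716) and 10 of 12 arrays were below 0, with -1.45 and -1.66 in pair 1 with the aged RNA in Cy3 as the lowest. Mrps31, the only small-subunit protein measured, was at -0.43, -0.42 and -0.21 in pairs 1 to 3, a mean of -0.35 ± 0.12 (adjusted p = 0.716). The closeness of these values hides a split of its arrays by dye and labelling. With the aged RNA in Cy5 alone its mean was -0.0037. With the aged RNA in Cy3, labelling 2 gave -1.49, -1.43 and -0.85 in pairs 1 to 3. Labelling 1 with that dye gave 0.26 and 0.17 in pairs 1 and 2. The missing array of pair 3 was left out for a value on the limit, and with limit and 0 values kept as deposited the mean was -0.84. A probe that lists Mrps31 among several genes read 0.14, and averaging it in gave -0.027.

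Mrpl15, of the large subunit, was also below 0 in each pair (-0.10, -0.27 and -0.55; mean -0.31 ± 0.23), with 9 of 12 arrays below. Mrpl51 was below in pairs 1 and 3 and above in pair 2 (-0.48, 0.18 and -0.22). Mrpl37 stood apart from the other ribosomal genes, with 1.56 in pair 1, 0.19 in pair 2 and -0.15 in pair 3 and a mean of 0.53 ± 0.90. The pair 1 value was made by the arrays with the aged RNA in Cy5, 2.56 and 2.55, against 0.48 and 0.63 with it in Cy3. The remaining ribosomal genes Mrpl20, Mrpl24, Mrpl43, Mrpl45 and Mrpl48 had means between -0.13 and 0.018. Mrpl24 and Mrpl45 each had a pair of probes on opposite sides of 0 (-0.37 and 0.11 in both genes).

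A further 112 genes of the same name groups were found only on probes that list several genes, where the gene measured is not known. Of the 43 ribosomal genes among them, 36 had means below 0, with a median of -0.095 and pair medians of -0.33, 0.021 and -0.14. Over all 112 genes 78 were below 0 and the median was -0.088 (pairs -0.19, 0.026 and -0.11), against 3632 of 6821 for all probes with several genes and a median of -0.017. With no sign turned 12 of the 43 and 28 of the 112 were below 0, against 2337 of the 6821 probes. As read here, complex I genes on such probes were below 0 in 15 of 20 (median -0.10), whereas Cox genes were in 4 of 8 and Slc25a genes in 9 of 18.

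Proteins enter mitochondria through the Tomm pore of the outer membrane and are sorted by the Timm complexes of the inner one. Their 6 genes had a median of -0.020, and none kept 1 sign in all 3 pairs. The 4 Timm genes had a median of -0.094 with 3 means below 0, and the 2 Tomm genes 0.12 with 0 below. Tomm70a, the receptor that hands over carrier proteins, had 0.091 in pair 1, 0.54 in pair 2 and -0.019 in pair 3, a mean of 0.21 ± 0.30 with 8 of 12 arrays above 0, and its 2 probes were both above 0 (0.31 and 0.10). Tomm40, the pore itself, was at -0.16, 0.41 and -0.15. Timm9, a chaperone of the space between the membranes, had 0.19 in pair 1, 0.065 in pair 2 and -0.77 in pair 3. Its positive pair 1 value rests on 1 array at 3.49, beside -1.66, -0.61 and -0.46, while in pair 3 all 4 arrays were at -0.48 or lower.

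Timm50, the receptor of the presequence translocase, had 0.17, -0.24 and -0.29, and Timm22, the channel that inserts carriers, 0.13, -0.26 and -0.086. Timm17b, a channel component of the presequence translocase, had pair values of 0.024, 0.29 and -0.23 and the lowest p of the 37 genes for a dye effect. Before signs were turned its ratio was above 0 in each pair, 0.49, 0.60 and 0.54 (mean 0.54 ± 0.055; limma adjusted p = 0.10). Ndufaf1 followed, with 0.59 ± 0.28 (adjusted p = 0.113). No dye effect passed an adjusted p of 0.05 among the 37 genes or among all rows (0%). An unadjusted p under 0.05 in this limma test was reached by 7 of the 37, against 5566 of 21370 rows. Before turning, 22 of the 37 had a mean above 0 and 15 below, against 36.8% of named genes below 0.

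The Slc25 family carries metabolites across the inner membrane. Its 8 genes had a median of 0.13, with 3 means below 0. Slc25a15, which exchanges ornithine for citrulline in the urea cycle, had the closest pair values of the 37 genes, 0.28, 0.18 and 0.28, with a mean of 0.25 ± 0.056 (limma adjusted p = 0.716). The agreement of pairs covered a dye split: its arrays ran between -0.45 and 1.49, and with the aged RNA in Cy5 alone the mean was -0.17. Slc25a36, a carrier of pyrimidine nucleotides, had 1.19 in pair 1, 0.15 in pair 2 and 0.075 in pair 3 and a mean of 0.47 ± 0.62. Its pair 1 arrays were at 1.99 and 1.95 where Cy5 held the aged RNA, and at 0.33 and 0.49 where Cy3 did, the same division as in Mrpl37.

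Slc25a17 differs from its family in place, since it carries cofactors across the peroxisomal membrane. It had 0.33 in pair 1, -1.15 in pair 2 and -0.45 in pair 3: all 8 arrays of pairs 2 and 3 were below 0, whereas 3 of 4 in pair 1 were above. In pair 2 the arrays with the aged RNA in Cy5 were at -1.40 and -1.40, and those with Cy3 at -0.68 and -1.10. The mean over pairs, -0.42 ± 0.74, thus joins values of opposite sign. A probe that lists Slc25a17 among several genes was at -0.52. Slc25a47, a carrier first described in liver, had 0.70, -0.066 and 0.057. The phosphate carrier Slc25a3, the ATP-magnesium carrier Slc25a24, the S-adenosylmethionine carrier Slc25a26 and the iron importer Slc25a37 had means between -0.057 and 0.14, and the 3 probes of Slc25a26 read 0.31, -0.41 and -0.070.

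The pairs themselves differed in 4 of the 37 genes by a limma F test on the 12 arrays with the dye orientation in the model, against 5.78% of all rows. These were Mrpl37 (adjusted p = 0.0146), Slc25a17 (adjusted p = 0.018), Slc25a36 (adjusted p = 0.0374) and Cox4i1 (adjusted p = 0.0395). The arrays of a pair are technical repeats, so this F test asks whether pairs differ beyond hybridisation error and is no test of age. Mrpl37 and Slc25a36 were highest in pair 1, while Cox4i1 and Slc25a17 had pair 1 on the other side of 0 from pairs 2 and 3. The arrays of pair 1 also stood apart in deposited median and in spread, and the part of this in the differences was not tested. Across the 12 arrays, which share RNAs and dyes, Mrpl37 and Slc25a36 ran at r = 0.970. Of 20449 other rows, 591 followed Mrpl37 and 530 followed Slc25a36 at r above 0.9, so the profile was a common one on these arrays. Atp5b and Mrpl44 ran at r = 0.905, and above 0.9 there were 460 other rows with Atp5b and 151 with Mrpl44. Pair, dye and array all enter these correlations and were not separated.

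**Figure D4:**
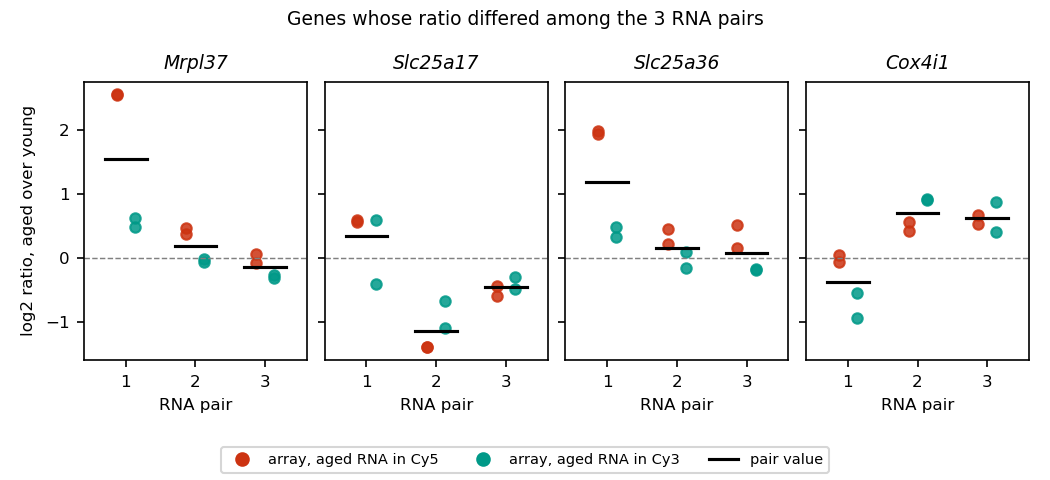
Log2 ratio of aged over young oocytes (y axis) by RNA pair (x axis) for the 4 mitochondrial genes that differed among pairs; points are single arrays coloured by the dye of the aged RNA, and bars are pair values. In pair 1, Mrpl37 and Slc25a36 are near 2 or above with the aged RNA in Cy5 and below 1 with it in Cy3, while Slc25a17 is below 0 on all arrays of pairs 2 and 3.

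Agreement between different probes of a gene gives a check that the arrays of 1 probe cannot. Of the 7 mitochondrial genes with more than 1 probe of their own, 5 had probes on opposite sides of 0 (Mrpl24, Mrpl45, Ndufs4, Slc25a26 and Timm22), and 2 did not (Slc25a3 and Tomm70a). Among the 867 named genes with more than 1 probe, the first 2 had opposite signs in 43.0%. Another 32 probes list 1 of 18 members among several genes, and 14 of the 32 had the sign of the gene's own value. The furthest apart were Mrpl37, whose own probe read 0.53 and the others -0.12 and -0.56, and Ndufa12, with 0.11 against -0.39 and -0.71.

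**Figure D5:**
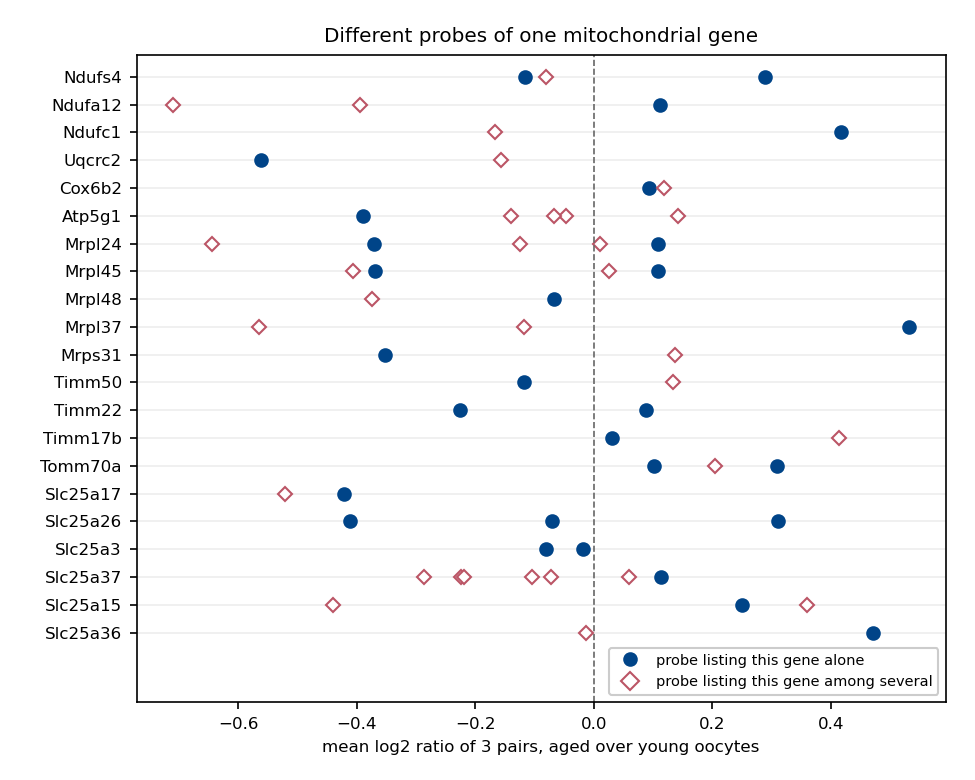
Mean log2 ratio of the 3 pairs, aged over young oocytes (x axis), for each probe of the mitochondrial genes (rows) that have several; filled circles are probes that list the gene alone, open diamonds probes that list it among others. In 5 of 7 genes with several filled circles these lie on both sides of 0, and 14 of the 32 diamonds lie on the side of their gene's mean.

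Other genes of the same organelle were read from lists beside the name groups. Of 55 listed genes of complex II, electron carriers and assembly, 10 were measured and 9 had means below 0 (median -0.11), against 49.9% of named genes. With no sign turned 2 of the 10 were below 0, and Sdha and Gpd2 were at 0.39 and 0.24. The lowest was Sdha, the flavoprotein subunit of succinate dehydrogenase, at -1.17, -1.01 and -0.39 in pairs 1 to 3 (mean -0.86 ± 0.41; limma adjusted p = 0.633), followed by Gpd2, the mitochondrial glycerol-3-phosphate dehydrogenase, at -0.48, -0.62 and -0.063. Of 60 listed genes for expression of the mitochondrial genome, 8 were measured and 6 were below 0 (median -0.15, with pair medians between -0.16 and -0.12), and 4 were with no sign turned. Tfam, which packages and transcribes mitochondrial DNA, had -0.55, -0.096 and -0.98 (mean -0.54 ± 0.44; adjusted p = 0.716), and Tfb1m, a methyltransferase of mitochondrial ribosomal RNA, -0.38, -0.87 and -0.071. None of these passed the adjusted test, and Sdha and Tfam alone had an unadjusted p under 0.05 in these 2 lists.

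The partners of import and the regulators lay nearer to 0. Among 6 measured of 38 listed chaperones, proteases and import partners, 4 were below 0 (median -0.026). Phb2, a prohibitin of the inner membrane, had -0.90, -0.027 and -0.26, and Clpx, the unfoldase of the matrix protease, 0.20, 0.15 and -0.032. Of 27 other carriers and channels 4 were measured, 2 of them below 0, with Mtch1, a carrier-related protein of the outer membrane, at 1.06, 0.26 and -0.16 and its relative Mtch2 at -0.092, -0.033 and -0.22. Of 23 regulators 9 were measured and 5 were below 0 (median -0.050). Gabpb1, a partner of the ETS factor that acts on many respiratory genes, was below 0 in each pair (-0.19, -0.42 and -0.079), and Sirt1, a deacetylase that acts on the coactivator PGC-1alpha, in pairs 1 and 2 (-0.22, -0.53 and 0.090).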

How the data were processed

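The values are the authors' deposited log10 ratios, 1 per probe and array. How they were scanned, background corrected and normalised is not given in the sources used here. Values on the limits of -2 and 2 (1215) or at exactly 0 (513), 0.638% of all, were treated as missing. Ratios were converted to log2, centred on each array's median and given the opposite sign where the aged RNA was in Cy3. Probes with the same single symbol were averaged on each array. Within a pair the mean of each dye orientation was then taken and both were averaged. Symbols came from the platform annotation: of 22575 probes 4262 list 1 gene, 6822 several and 11491 none.

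The 3 pair values of each of 21370 rows were set against 0 in a two-sided test by lmFit and eBayes of limma 3.58.1 under R 4.3.3, with Benjamini-Hochberg adjustment. The same tool was fitted to the 12 arrays for differences among pairs (F test). For dye effects it tested the 3 pair values of each row against 0, taken before signs were turned. The limma step was tested on simulated data. The number of arrays limits the precision. Genes named are the 4 of smallest p in each name group, all with an unadjusted p under 0.05, the 2 of smallest p for pair and for dye, and 2 of each other list. The members and lists were chosen with earlier results of these data known.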

Additional observations from a re-analysis of the deposited data

How the results depend on the processing

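Of the 37 genes, 0 passed the adjusted test under any of the 20 other settings or at an adjusted p of 0.1, and the lowest adjusted p was 0.10, with no sign turned. Over all rows, 226 passed with the 12 arrays fitted and pair as a random block (correlation 0.0721), 43 without pair 1, 13 without centring and 1 with named genes tested alone. At so low a correlation the block fit counts the technical arrays of a pair almost as separate replicates, and the fit without pair 1 rests on pairs 2 and 3 alone. Without centring the median of named genes moved to -0.114 and that of the mitochondrial genes to -0.164. With no sign turned the median of named genes was 0.0927 and that of the mitochondrial genes 0.0841. Of the 37 genes, 2 had an unadjusted p under 0.05 with labelling 1 alone, against 1072 of 20615 rows. With probes of several genes averaged in there were 3, against 1383 of 21370 rows. With a pair left out they numbered between 1 (without pair 3, 928 of 21370 rows) and 5 (without pair 1, 1778 of 21381 rows). Atp5b kept such a p in 17 of 20 settings, Uqcrc2 in 14, Atp5g1 in 12, Mrpl44 in 11, Ndufc1 in 9, and Mrps31 in 9 of 18. These settings are not independent: those of probe averaging or of the fit left the means of Atp5b and Mrpl44 as they were. The counts of signs that follow include such settings. The sign turned in 51 recomputed values of named mitochondrial genes and stayed in 485, and for other genes it turned in 12 and stayed in 188; the causes were not tested. Every test of age above is paired, since each value is a ratio within an RNA pair. The F test instead compares the pairs, with their arrays as repeats.

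The turned values follow. Without centring: Cox6b2 -0.0211, Ndufa12 -0.00216, Timm17b -0.0843, Tomm40 -0.0816 and Clpx -0.0092. With arrays scaled to one spread: Timm9 0.133. With no sign turned: Atp5b 0.339, Atp5mpl -0.196, Cox6b2 -0.0887, Mrpl15 0.289, Mrpl44 0.267, Mrps31 0.349, Ndufa12 -0.170, Ndufaf1 0.586, Slc25a15 -0.415, Timm22 0.303, Timm50 0.110, Timm9 0.40, Tomm70a -0.137, Uqcrc2 0.0749, Sdha 0.385, Gpd2 0.241, Phb2 0.330, Clpx -0.00667, Tfam 0.396, Tfb1m 0.470, Mtch2 0.0799 and Sirt1 0.0768. With labelling 1 alone: Ndufa1 0.132, Timm17b -0.160 and Timm9 0.305. With labelling 2 alone: Cox6a2 0.0121, Cox6b2 -0.0626, Timm22 0.0685, Timm50 0.0112 and Tomm40 -0.0384. With the aged RNA in Cy5 alone: Ndufa12 -0.0581, Ndufaf1 0.335, Slc25a15 -0.166, Timm22 0.234, Timm9 0.228 and Tfb1m 0.0306. With it in Cy3 alone: Cox6a2 0.268, Ndufa1 0.137, Timm17b -0.510, Tomm40 -0.391 and Mtch1 -0.0138. With probes of several genes averaged in: Mrpl37 -0.0503, Ndufa12 -0.330, Timm50 0.00734 and Clpx -0.138. Settings added after seeing the data gave Ndufa1 0.0169 without the array of widest spread, and Timm17b -0.0575, Timm22 0.0572 and Tomm40 -0.0406 with the median of a pair's arrays. With each pair left out in turn, Atp5mpl ran between -0.0620 and 0.407, Cox6b2 between -0.0508 and 0.189, Ndufaf1 between -0.464 and 0.00494, Slc25a47 between -0.00478 and 0.379, Timm17b between -0.101 and 0.159, Timm22 between -0.171 and 0.0238, Timm9 between -0.352 and 0.127, and Tomm40 between -0.157 and 0.130.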
